A study of Mus musculus with 22 samples.

Results

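A set of 10 known target genes of the Hippo pathway was followed in mice carrying the K5-VGLL3 transgene and in wild-type mice: CTGF, CYR61, ANKRD1, AMOTL1, AMOTL2, AXL, LATS2, PTPN14, ARHGEF17 and ASAP1. They were found by symbol, 10 of 24401 genes in the tissue count table and 10 of 21596 in the keratinocyte table, which together list 26379 genes. Symbols are in capitals, as in the tables, although the genes are those of the mouse. The study compared 22 RNA-seq libraries. Of these, 16 were made from nonlesional skin and from whole blood of 4 K5-VGLL3 and 4 wild-type animals, matched for age and sex, with 2 females and 2 males of each genotype; the age was not given in the sources used here. Primary keratinocytes came from tails of 3 K5-VGLL3 and 3 wild-type littermates of 23 days and grew in culture for 3 days before harvest. The labels give the K5-VGLL3 cultures as 3 males and the wild-type cultures as 2 females and 1 male. K5 names keratin 5, whose promoter is active in basal cells of the epidermis and hair follicle. The number of founder lines, and whether reads of the transgene were counted under VGLL3, were not given in the sources used here.

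The Hippo pathway is a kinase cascade in which STK3 and STK4 activate LATS1 and LATS2, which in turn phosphorylate the coactivators YAP1 and WWTR1 (TAZ) and keep them out of the nucleus. When the kinases are quiet, YAP1 and WWTR1 bind TEAD transcription factors and turn on genes of growth, adhesion and matrix signalling. VGLL3 is a vestigial-like cofactor that binds the same TEAD factors. In the epidermis the pathway is known for its part in growth of basal cells and in wound repair. CTGF and CYR61 encode secreted CCN matrix proteins and are classic readouts of the pathway. AMOTL1 and AMOTL2 are angiomotin proteins that hold YAP1 at cell junctions, PTPN14 is a tyrosine phosphatase that binds YAP1, and LATS2 is one of the kinases, so that several targets restrain the pathway that drives them. AXL is a receptor tyrosine kinase, ARHGEF17 a guanine nucleotide exchange factor, ASAP1 a GTPase-activating protein for Arf, and ANKRD1 an ankyrin repeat protein best known from stressed muscle.

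Total counts were 19600892 to 40678246 in skin, 11197265 to 18235483 in blood and 33412093 to 51877437 in keratinocytes. The values below are CPM (counts scaled to a common library total) over library sizes scaled by TMM, with SD over libraries. Log2 fold changes (K5-VGLL3 minus wild type) carry the SE of the edgeR fit, and a gene passed at an adjusted p below 0.05. KRT5 and KRT14, keratins of basal keratinocytes, reached 15030 to 20910 and 15650 to 18990 CPM in the cultures, 2537 to 4692 and 1269 to 2237 CPM in skin, and at most 24.4 CPM in blood. KRT5 was lower in the K5-VGLL3 cultures, at 15030 to 16970 against 18810 to 20910 CPM, and KRT14 higher, at 17440 to 18990 against 15650 to 17340 CPM. KRT5 did not pass in the main test and passed in 4 of 11 other settings, and KRT14 in 0 of 11. VGLL3 itself stood at 499, 478 and 406 CPM in the K5-VGLL3 cultures and at 225, 191 and 192 CPM in the wild-type ones, a log2 difference of 1.19 (SE 0.0980, adjusted p = 7.16e-04). In skin it measured 98.9, 778, 123 and 92.2 CPM against 72.9, 92.4, 43.6 and 49.1 CPM. The skin groups overlapped narrowly, since K5-VGLL3 replicate 4 lay just under wild-type replicate 2, and the difference of 1.81 (SE 0.590) did not pass (adjusted p = 0.239). Without K5-VGLL3 replicate 2 it was 0.85 (adjusted p = 0.105), and over 16 settings the adjusted p ran from 0.0258 to 0.548, with 2 below 0.05 (DESeq2, and both libraries numbered 2 left out). In blood VGLL3 had only 2, 15, 0 and 0 counts in K5-VGLL3 libraries and 14, 16, 4 and 3 in wild-type ones (log2 -2.14, SE 0.878, adjusted p = 0.296). Its genotype effect differed between skin and blood by 4.00 (SE 0.603, adjusted p = 0.0151), a call lost without the animal block (adjusted p = 0.117). Skin replicates 2 also stood apart in the summed level of 16 hair-shaft genes, which was 3604 CPM in the K5-VGLL3 animal against 14.3 to 16.7 in the other 3, and 11.6 CPM in the wild-type animal against 7337 to 55400 in the other 3. Leaving out both libraries, a setting chosen after the data were seen, left K5-VGLL3 skin only low and wild-type skin only high in these genes. Genotype and hair-shaft level cannot be told apart in that setting. It called 2978 of 18418 genes, against 2 of 17901 in the main test. In the main test genotype and hair-shaft level are partly confounded, since only the replicates numbered 2 break the pattern.

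Levels were compared between genes per kilobase of merged exons. In wild-type skin CYR61 led with 95.8 ± 23.3 CPM per kb (SD, n = 4), followed by AXL at 47.2 ± 5.09. AMOTL1, CTGF and AMOTL2 followed at 25.6 ± 6.47, 24.4 ± 4.53 and 21.7 ± 4.05 CPM per kb, in an order that their overlapping ranges do not fix. PTPN14, ASAP1, ARHGEF17 and LATS2 lay between 13.3 and 5.89 CPM per kb, and ANKRD1 was lowest at 1.11 ± 1.05. The wild-type cultures gave nearly the same order, with AXL at 151 ± 8.50 and CYR61 at 121 ± 30.9 CPM per kb (n = 3), whose ranges overlapped, and ANKRD1 again last at 0.0583 ± 0.0142. In wild-type blood only ASAP1 was above 1 CPM per kb, at 7.12 ± 1.27.

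In cultured keratinocytes the targets moved in both directions. AMOTL2 rose 1.71-fold, while CYR61 fell 2.06-fold, ASAP1 1.67-fold, PTPN14 1.61-fold, ARHGEF17 1.60-fold and AXL 1.19-fold. CTGF, AMOTL1 and LATS2 did not pass, and ANKRD1, with 2 to 10 counts per library, was too low to be tested. Of the 9 members tested, 1 passed as higher and 5 as lower, beside 7.11% (higher) and 8.09% (lower) of all 14451 genes tested. The median log2 fold change of the 9 was -0.29, and that of all genes tested was 0.0099. The K5-VGLL3 and wild-type cultures did not overlap for 6 of the 9, against 36.3% of all genes.

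The only member that rose, AMOTL2, had 733, 728 and 617 CPM in the K5-VGLL3 cultures and 450, 384 and 380 CPM in the wild-type cultures (log2 0.77, SE 0.0949, adjusted p = 0.00277). Its lowest K5-VGLL3 value stayed above the highest wild-type value. The angiomotin relative AMOTL1 measured 632, 655 and 500 CPM against 582, 571 and 550 CPM, with groups that overlapped (log2 0.07, SE 0.101, adjusted p = 0.695). It passed as higher, by 0.17 (adjusted p = 0.0361), once K5-VGLL3 replicate 3, its lowest culture, was left out, the one setting of 11 to do so (0.0361 to 0.986).

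PTPN14 was the member with the smallest p. It had 99.1, 102 and 94.2 CPM in the K5-VGLL3 cultures and 165, 156 and 155 CPM in the wild-type cultures (log2 -0.69, SE 0.0491, adjusted p = 4.85e-04). The spread within either genotype was a small part of that gap. LATS2, the kinase among the targets, gave 24.0, 22.8 and 15.99 CPM against 28.5, 23.3 and 24.7 CPM (log2 -0.29, SE 0.157, adjusted p = 0.263). Its groups overlapped, with the 95% interval running from -0.66 to 0.08.

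ARHGEF17 and ASAP1 behaved much like PTPN14. For ARHGEF17 the K5-VGLL3 cultures held 53.4, 52.3 and 50.3 CPM and the wild-type cultures 84.3, 86.1 and 78.9 CPM (log2 -0.68, SE 0.0519, adjusted p = 5.23e-04). ASAP1 stood at 42.5, 40.6 and 38.1 CPM against 74.2, 65.4 and 62.8 CPM (log2 -0.74, SE 0.0762, adjusted p = 0.00142). Both genes had every K5-VGLL3 culture below every wild-type culture. AMOTL2, PTPN14, ARHGEF17 and ASAP1 passed under all 11 other settings, among them each culture left out in turn.

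The calls for CYR61 and AXL did not hold in every setting. CYR61 had 153, 121 and 83.6 CPM in the K5-VGLL3 cultures and 314, 228 and 192 CPM in the wild-type ones (log2 -1.04, SE 0.246, adjusted p = 0.0312). AXL measured 636, 624 and 658 CPM against 804, 749 and 720 CPM (log2 -0.24, SE 0.0597, adjusted p = 0.0348). Groups were again apart for both, but the highest wild-type culture, replicate 1, was female, and sex was uneven between the genotypes. With a sex term, which sets the 3 male K5-VGLL3 cultures against 1 male wild-type culture, CYR61 gave -0.69 (adjusted p = 0.271) and AXL -0.17 (adjusted p = 0.301), and neither passed. CYR61 also missed the threshold without wild-type replicate 1, wild-type replicate 2 or K5-VGLL3 replicate 2 (0.0829 to 0.0977), and AXL without any of these or K5-VGLL3 replicate 1 (0.0962 to 0.130). Over 11 settings the adjusted p ran from 0.0105 to 0.271 for CYR61 and from 0.00348 to 0.301 for AXL.

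CTGF, the relative of CYR61, did not pass in the cultures. It had 174, 151 and 85.6 CPM in the K5-VGLL3 cultures and 179, 145 and 105 CPM in the wild-type cultures (log2 -0.07, SE 0.278, adjusted p = 0.902). Values were spread alike in both genotypes, and the 95% interval of -0.72 to 0.59 leaves room for a change in either direction. With the sex term its difference turned to 0.38 (adjusted p = 0.604).

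**Figure D1:**
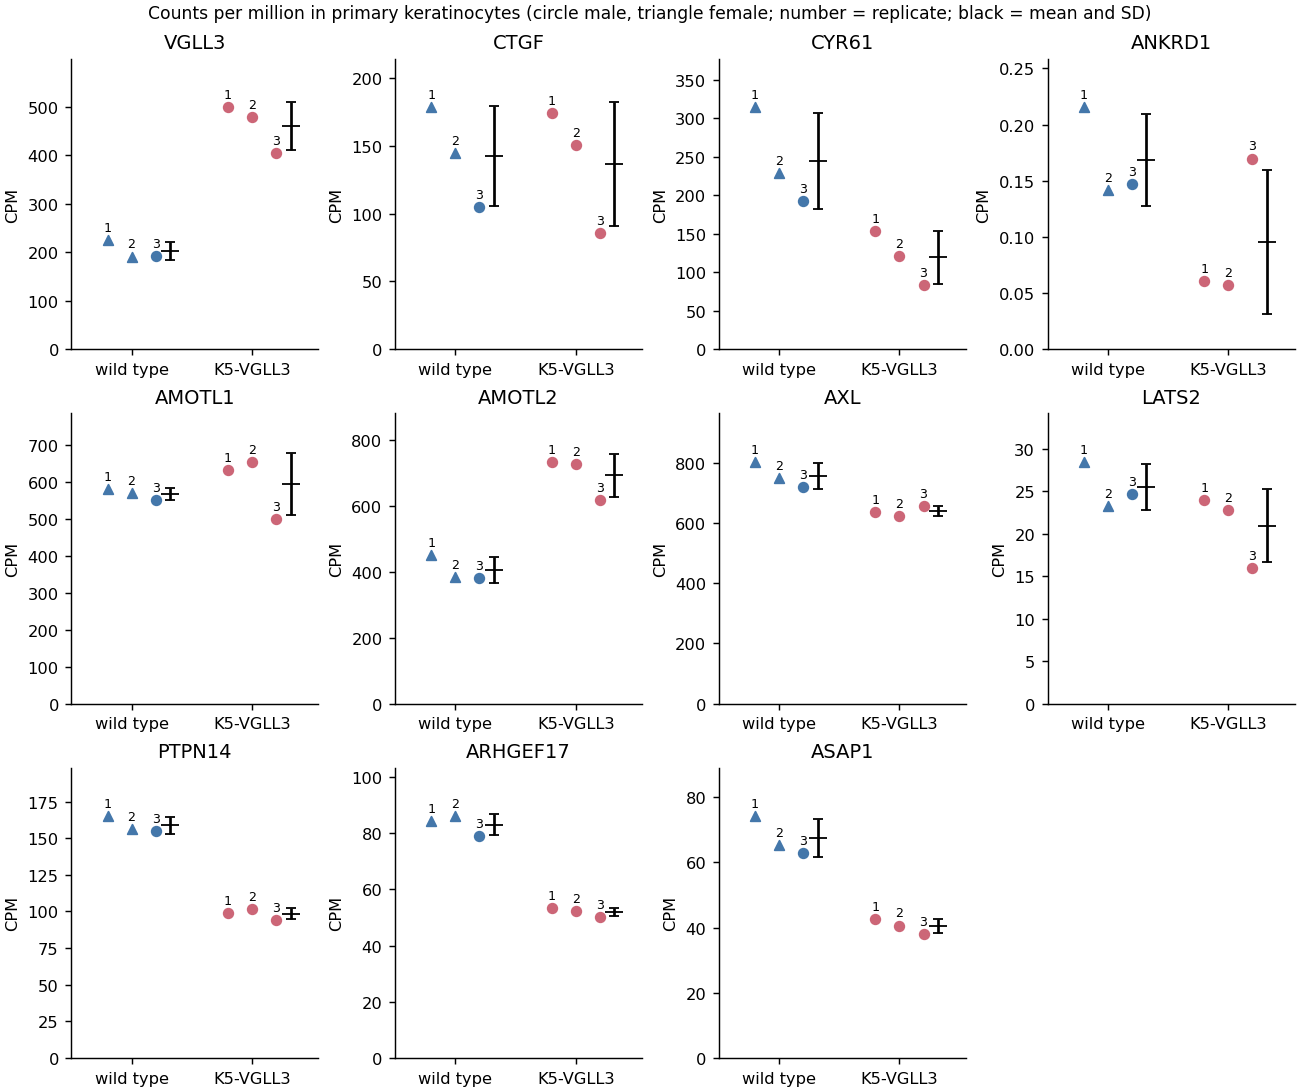
CPM (linear axes from 0) of VGLL3 and the 10 Hippo targets in 3 wild-type (blue) and 3 K5-VGLL3 (red) keratinocyte cultures; points are cultures, numbered by replicate and shaped by sex, and black bars give mean and SD. K5-VGLL3 cultures lie above wild type for AMOTL2 and below it for CYR61, AXL, PTPN14, ARHGEF17 and ASAP1, while CTGF, AMOTL1 and LATS2 overlap.

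The promoters of the members that moved in keratinocytes are shown because CYR61, PTPN14 and AXL fell while AMOTL2 rose, although each holds the same short TEAD recognition word. The RefSeq table (GRCm38.p6) matched 7 of the 10 members with 8 windows of 300 bases, from 250 bases before the gene's start to 50 after it. The word searched was CATTCC, the core of the M-CAT element bound by TEAD factors, on both strands (its reverse complement is GGAATG). It was found for 6 of the 7 members, in 6 of 8 windows, beside 14.7% of all 32851 windows of that length. The exception was AMOTL1, and of the pair of LATS2 windows 1 held the word. These are matches of letters only, and no binding was measured. The stretches below are the 250 bases before the start, 5′ to 3′ on the gene's strand, with the word in capitals. They lie at chr3:145649986-145650235 (minus strand) for CYR61, chr9:102717554-102717803 (plus) for AMOTL2, chr1:189728018-189728267 (plus) for PTPN14 and chr7:25788734-25788983 (minus) for AXL.
CYR61: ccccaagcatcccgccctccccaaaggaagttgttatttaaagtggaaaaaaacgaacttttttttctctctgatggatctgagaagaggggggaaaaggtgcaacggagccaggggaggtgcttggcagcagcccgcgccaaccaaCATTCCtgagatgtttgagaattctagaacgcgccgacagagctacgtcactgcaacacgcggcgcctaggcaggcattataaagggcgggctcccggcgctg
AMOTL2: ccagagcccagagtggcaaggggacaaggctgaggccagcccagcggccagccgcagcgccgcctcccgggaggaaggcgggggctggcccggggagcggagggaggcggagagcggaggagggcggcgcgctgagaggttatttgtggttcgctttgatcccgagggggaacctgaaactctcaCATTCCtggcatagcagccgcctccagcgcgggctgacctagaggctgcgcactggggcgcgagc
PTPN14: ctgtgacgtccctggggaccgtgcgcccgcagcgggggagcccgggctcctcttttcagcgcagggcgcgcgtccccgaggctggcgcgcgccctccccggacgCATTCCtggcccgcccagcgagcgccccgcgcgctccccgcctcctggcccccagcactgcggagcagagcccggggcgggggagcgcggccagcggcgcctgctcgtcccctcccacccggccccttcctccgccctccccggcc
AXL: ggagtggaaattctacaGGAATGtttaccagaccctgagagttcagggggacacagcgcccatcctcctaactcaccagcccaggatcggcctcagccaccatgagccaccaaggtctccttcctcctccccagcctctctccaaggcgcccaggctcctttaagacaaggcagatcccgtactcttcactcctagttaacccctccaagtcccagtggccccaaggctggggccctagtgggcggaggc
The word begins 103 bases before the start in CYR61, 65 in AMOTL2 and 146 in PTPN14, each time as CATTCC, and 233 bases before it in AXL as GGAATG. ANKRD1, nearly silent in these cultures, holds GGAATG at 210 and 123 bases before its start. The word was thus present in the gene that rose and in genes that fell. CTGF, ARHGEF17 and ASAP1 had no sequence shown.

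The remaining genes of the pathway were taken from lists of TEAD factors and their cofactors, core kinases and adaptors, upstream regulators, and other reported targets. Of 48 such genes tested in keratinocytes 9 passed, beside 15.2% of all genes, so the lists together lay near that background. Among 7 TEAD factors and cofactors, WWTR1 fell (89.7, 83.9 and 72.8 against 105, 103 and 105 CPM; log2 -0.35, SE 0.0755, adjusted p = 0.0236) and the other 6 did not pass, with a median log2 fold change over the list of -0.08. YAP1, the paralogue of WWTR1, gave -0.05 (SE 0.0391, adjusted p = 0.444). None of the 7 core kinases and adaptors passed (list median 0.14); the smallest p values belonged to MOB1B, an adaptor of the LATS kinases, at 0.18 (SE 0.0564, adjusted p = 0.0707) and STK3 at -0.21 (SE 0.0736, adjusted p = 0.107). MOB1B passed with 1 culture left out, K5-VGLL3 replicate 3 (0.23, adjusted p = 0.00574).

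Upstream regulators passed for 3 of 21 tested, near the 15.2% of all genes. WWC1 (KIBRA), a scaffold that promotes LATS activation, fell with 145, 147 and 154 against 196, 187 and 200 CPM (log2 -0.38, SE 0.0480, adjusted p = 0.00297). DLG1, a scaffold of cell polarity, fell with 221, 218 and 188 against 303, 305 and 276 CPM (log2 -0.50, SE 0.0753, adjusted p = 0.00630). MAP4K4, a kinase that can act on LATS, rose slightly, with 429, 425 and 417 against 375, 359 and 373 CPM (log2 0.20, SE 0.0448, adjusted p = 0.0263). The list as a whole was balanced, with 10 positive and 11 negative values and a median of -0.004 on the log2 scale.

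Among 13 other reported targets, 4 rose, 1 fell and 8 did not pass, with a list median of 0.45. Of all genes tested 7.11% passed as higher and 8.09% as lower. CCDC80, a secreted matrix protein, had 11.9, 9.22 and 13.6 CPM against 4.31, 3.09 and 2.33 CPM (log2 1.83, SE 0.238, adjusted p = 0.00357). NUAK2, a stress-responsive kinase, had 126, 124 and 89.3 CPM against 58.5, 46.9 and 51.0 CPM (log2 1.11, SE 0.143, adjusted p = 0.00336). Both had groups well apart. NT5E, the ectonucleotidase CD73, followed with 0.64 (SE 0.123, adjusted p = 0.0151) and RBMS3, an RNA-binding protein, with 0.69 (SE 0.168, adjusted p = 0.0342). TGFB2, a growth factor of the TGF-beta family, fell from 2.84, 2.58 and 2.83 CPM to 1.33, 1.05 and 1.34 CPM (log2 -1.15, SE 0.168, adjusted p = 0.00549). Of the 9 calls in these lists, CCDC80 and WWC1 passed with the sex term and the other 7 did not. Leaving out single cultures ended the calls for WWTR1 (4 of 6 cultures, all but K5-VGLL3 replicates 1 and 3), for MAP4K4 and RBMS3 (5 of 6 each, all but K5-VGLL3 replicate 3) and for NT5E (3 of 6, K5-VGLL3 replicate 2 and wild-type replicates 2 and 3), with adjusted p of 0.0545 to 0.134 where lost. RBMS3 also missed the threshold with limma-voom (0.0609). Fibroblast markers (8 genes, 7 analysed) summed to 29.6 to 63.5 CPM in the K5-VGLL3 cultures, highest in replicate 3, and 27.6 to 31.5 CPM in the wild-type ones. T cell markers summed to 4.68 to 5.88 CPM against 22.6 to 29.0 CPM, although only CD5 and CD28 of that list of 8 were analysed there, while suprabasal markers overlapped (1554 to 2219 against 1655 to 2417 CPM). Basal keratinocyte markers (7 genes) overlapped in sum, at 42840 to 44470 against 41230 to 44380 CPM, although 3 of 7 passed as higher and 0 as lower. The part of other cells, or of a shift in basal cells, in these results was not tested.

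**Figure D2:**
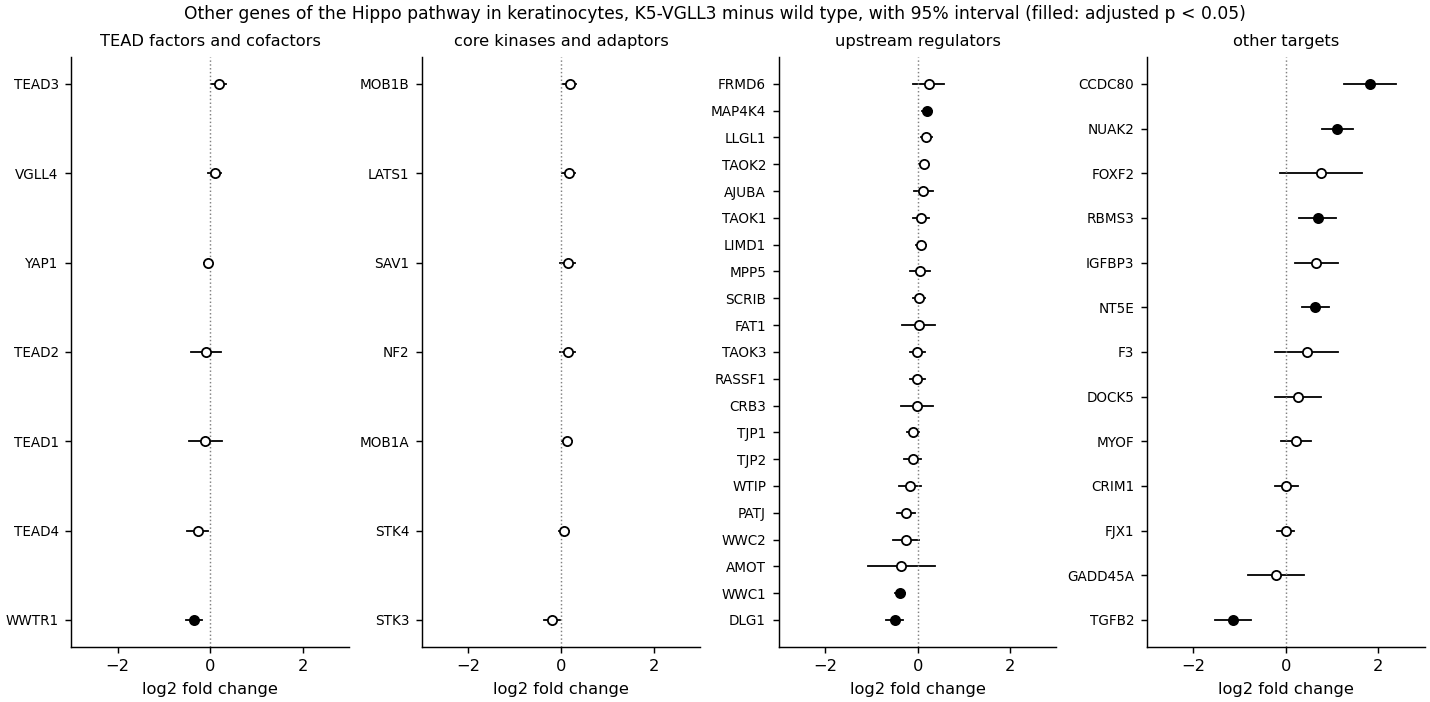
Log2 fold change (horizontal axes, K5-VGLL3 minus wild type) with 95% interval for the other genes of the pathway tested in keratinocytes, in 4 lists; filled points passed at an adjusted p below 0.05. CCDC80 (1.83) and NUAK2 (1.11) lie farthest to the right, TGFB2 (-1.15) farthest to the left, and the core kinases cluster near 0.

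In skin, 0 of the 10 members passed, beside 0.0112% (2 of 17901) of all genes, and 3 of the 10 had an unadjusted p below 0.05, beside 17% of all genes. DESeq2 called those 3, with CTGF (adjusted p = 0.00417) and AXL (0.00169) higher and ARHGEF17 (0.0400) lower in K5-VGLL3 skin. It called 1100 of all 17901 genes. The groups did not overlap for CTGF and AXL, against 7.41% of all genes. The median log2 fold change was 0.02 over the 10 members and -0.008 over all genes tested. Since skin is a mixture, fewer cells of a type and less RNA per cell cannot be told apart.

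CTGF had the clearest separation in skin. It measured 129, 387, 160 and 109 CPM in K5-VGLL3 skin and 70.8, 87.6, 62.0 and 58.7 CPM in wild-type skin (log2 1.43, SE 0.341, adjusted p = 0.205). Every K5-VGLL3 value lay above every wild-type value, and replicate 2, the animal with the highest VGLL3, was far above the rest. Without K5-VGLL3 replicate 2 the difference was 0.98 (adjusted p = 0.0840). With both libraries numbered 2 left out it was 1.04 and passed (adjusted p = 0.0226), as did 2978 of 18418 genes. In that setting, chosen after the data were seen, genotype cannot be told apart from hair-shaft level. Over 16 settings the adjusted p ran from 0.00417 to 0.540, with 2 below 0.05. Summed fibroblast markers were 11210 to 20320 CPM in K5-VGLL3 skin and 6915 to 94780 CPM in wild-type skin. Of the 8 markers none passed, with COL1A1, a collagen, at -1.65 and FBLN1, a matrix glycoprotein, at 0.71 as the lowest and highest log2 values. The part of fibroblasts in the CTGF values was not tested.

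CYR61 gave 175, 98.1, 124 and 164 CPM against 239, 194, 128 and 212 CPM (log2 -0.45, SE 0.254, adjusted p = 0.378). The groups overlapped, and the lowest value belonged to K5-VGLL3 replicate 2, where CTGF was highest. ANKRD1 was uneven within wild-type skin, with 0.494, 6.05, 0.663 and 5.57 CPM against 1.18, 0.256, 1.26 and 1.56 CPM in K5-VGLL3 skin (log2 -1.65, SE 0.929, adjusted p = 0.382). A pair of wild-type animals lay within the K5-VGLL3 range and the other two above it.

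AXL measured 408, 391, 372 and 280 CPM in K5-VGLL3 skin and 275, 234, 218 and 224 CPM in wild-type skin (log2 0.61, SE 0.147, adjusted p = 0.210). The groups did not overlap, though the nearest values were 280 and 275 CPM. Over 16 settings the adjusted p ran from 0.00169 to 0.540, with DESeq2 alone below 0.05. AXL is also expressed by macrophages, whose 8 markers summed to 911 to 2199 CPM in K5-VGLL3 skin and 459 to 1509 CPM in wild-type skin. T cell markers summed to 44.9 to 100.3 against 18.1 to 43.9 CPM. The part of these cells in the AXL values was not tested.

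ARHGEF17 stood at 47.9, 55.4, 40.8 and 30.3 CPM in K5-VGLL3 skin and at 89.9, 54.9, 74.2 and 69.2 CPM in wild-type skin (log2 -0.75, SE 0.204, adjusted p = 0.223). Only wild-type replicate 2 reached into the K5-VGLL3 range. Without that library the difference was -0.93 and passed (adjusted p = 0.0465), as did 278 of 18609 genes. Without both libraries numbered 2 it was -0.99 (adjusted p = 0.0151), among 2978 of 18418 genes that passed. Genotype and hair-shaft level cannot be told apart in that last setting. Without wild-type replicate 2 alone they are largely confounded too, since only K5-VGLL3 replicate 2 then breaks the pattern. With a covariate for the hair-shaft genes the difference shrank to -0.40 (adjusted p = 0.542). The 16 settings spanned adjusted p from 0.0151 to 0.567.

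The other members did not pass in skin either, with 95% intervals of -0.03 to 0.71 for AMOTL2 and -0.49 to 0.64 for PTPN14. AMOTL2 gave 185, 266, 137 and 122 CPM against 166, 149, 115 and 116 CPM (log2 0.34, SE 0.159, adjusted p = 0.319), with overlapping groups and its highest value again in K5-VGLL3 replicate 2. PTPN14 gave 235, 125, 194 and 190 CPM against 173, 246, 137 and 159 CPM (log2 0.08, SE 0.244, adjusted p = 0.888). In each genotype the replicate numbered 2 was the extreme for PTPN14, lowest in K5-VGLL3 skin and highest in wild-type skin. ASAP1 hardly varied, with 72.0 to 81.7 CPM against 71.2 to 90.5 CPM (log2 -0.03, 95% interval -0.28 to 0.22). AMOTL1 (log2 -0.08, 95% interval -0.42 to 0.25) and LATS2 (0.12, -0.22 to 0.47) overlapped between genotypes as well.

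**Figure D3:**
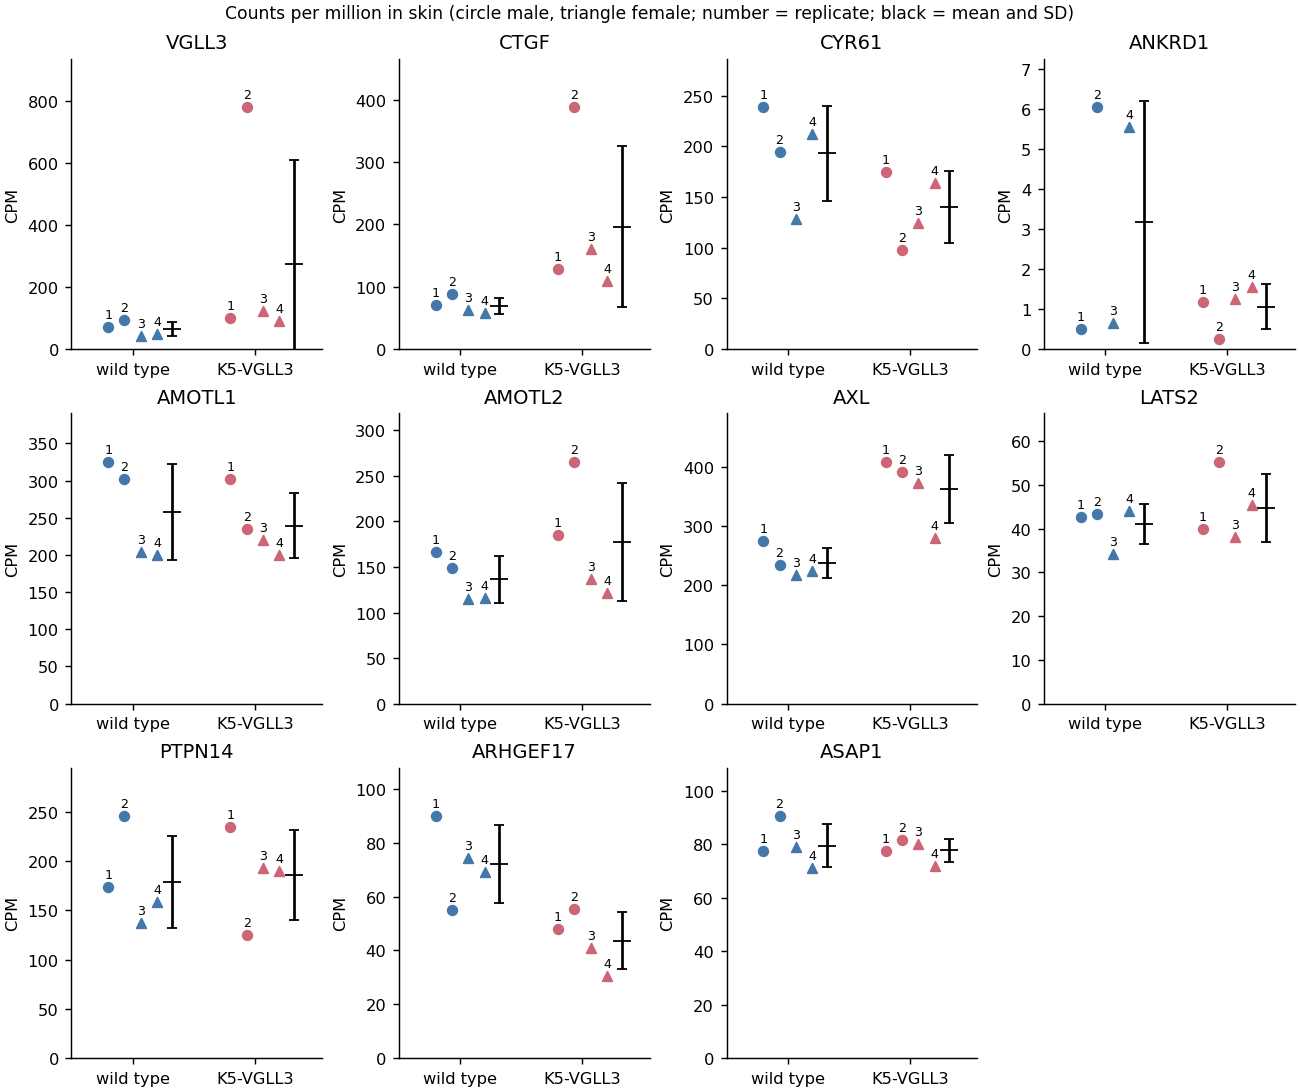
CPM (linear axes from 0) of VGLL3 and the 10 Hippo targets in skin of 4 wild-type (blue) and 4 K5-VGLL3 (red) animals; points are animals, numbered by replicate and shaped by sex, and black bars give mean and SD. Only CTGF and AXL have groups that do not overlap, and K5-VGLL3 replicate 2 is highest for VGLL3 (778 CPM) and CTGF (387 CPM) and lowest for CYR61 (98.1 CPM).

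Of 51 other pathway genes tested in skin 0 passed. An unadjusted p below 0.05 was found for 8 of them, no larger a share than the 17% of all genes, and the genes named here are those with the smallest p in each list. The smallest p among TEAD factors and cofactors belonged to VGLL4, another vestigial-like TEAD partner, at -0.44 (SE 0.126, adjusted p = 0.223), and the next to TEAD3 at -0.25 (SE 0.108). Among the other targets it belonged to IGFBP3, a binding protein of insulin-like growth factors, at 0.98 (SE 0.270, adjusted p = 0.223). Among core kinases and adaptors MOB1B (-0.36, SE 0.118) and LATS1 (-0.35, SE 0.136) had the smallest p, and among upstream regulators TJP1, a tight junction scaffold (-0.55, SE 0.184), and WWC1 (-0.72, SE 0.275). IGFBP3 passed with DESeq2 (adjusted p = 0.0160), which called 1100 of 17901 genes. VGLL4 and IGFBP3 passed with the libraries numbered 2 left out, at -0.56 (adjusted p = 0.0361) and 1.33 (adjusted p = 0.00827). That setting, chosen after the data were seen, called 2978 of 18418 genes and cannot tell genotype from hair-shaft level. NUAK2, which rose in the cultures, gave 0.22 (SE 0.200) in skin, and CCDC80 gave -0.49 (SE 0.418).

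In blood only ASAP1 was expressed at more than 15 CPM, with 46.3 to 58.9 CPM in K5-VGLL3 and 46.5 to 67.4 CPM in wild-type animals (log2 0.01, SE 0.179, adjusted p = 0.983). Only 6 members had counts high enough to be tested and 0 passed, beside 0.761% (85 of 11174) of all genes, and 0 of the 6 had an unadjusted p below 0.05, beside 15.5% of all genes. DESeq2 and limma-voom called 0 as well. Groups were apart for 0 of the 6, against 8.75% of all genes. The median log2 fold change was 0.12 over the 6 members and -0.04 over all genes. LATS2 measured 6.10 to 6.72 CPM against 3.48 to 7.46 CPM, AXL 0.982 to 3.94 against 2.697 to 6.82 CPM, and PTPN14 3.73 to 7.60 against 3.08 to 14.3 CPM. AMOTL2 and ARHGEF17 had 1.18 to 2.99 and 0.841 to 1.49 CPM in K5-VGLL3 blood, against 0.901 to 1.80 and 0.386 to 1.35 CPM.

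The 4 other members were near the limit of counting in blood. CTGF had 2, 1, 0 and 0 counts in K5-VGLL3 blood and 7, 17, 5 and 16 in wild-type blood. Per effective library size the wild-type total was 21.4-fold that of K5-VGLL3, with an exact 95% interval of 6.87 to 108 that covers counting error only. CYR61 had 0, 0, 2 and 1 counts against 6, 2, 5 and 4, an 8.09-fold ratio (2.34 to 43.1). AMOTL1 had 4, 24, 2 and 1 counts against 12, 5, 7 and 5, and ANKRD1 had a single count in 1 wild-type library. With no filter on low counts, CTGF passed in edgeR (adjusted p = 9.15e-06) and CYR61 did not (0.225). That setting called 1101 of 20826 genes.

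Some lists of skin markers moved alongside these low counts and others did not. Hair-shaft markers (16 genes) overlapped, at 4.67 to 17.8 CPM in K5-VGLL3 blood and 4.69 to 15.5 CPM in wild-type blood. Basal keratinocyte markers (7 genes) also overlapped in sum, at 150 to 232 against 196 to 332 CPM, although 4 of 7 passed as lower. Sums of adipocyte, smooth muscle and melanocyte markers overlapped too. Suprabasal keratinocyte markers (8 genes) summed to 0.926 to 2.21 CPM in K5-VGLL3 blood and 33.3 to 114.5 CPM in wild-type blood, and 6 of the 6 tested passed as lower. KRT5, a basal marker, had 0.505 to 0.943 CPM against 10.04, 24.3, 11.8 and 22.9 CPM, the latter from 179, 192, 184 and 178 counts. Its higher CPM in wild-type replicates 2 and 4 thus came from smaller effective library sizes, at nearly equal counts. Skeletal muscle markers (8 genes) summed to 4.28 to 7.83 against 21.1 to 41.7 CPM. Fibroblast markers summed to 2.75 to 7.01 CPM in K5-VGLL3 replicates 1, 3 and 4 and to 76.3 CPM in replicate 2, the library with 24 of the 31 AMOTL1 counts, against 32.4 to 86.1 CPM in wild-type blood. The part of such RNA in the CTGF and CYR61 counts was not tested. Some lists of blood cell markers were apart as well. T cell markers (8 genes) summed to 70.6 to 89.4 CPM in K5-VGLL3 blood and 124.5 to 179 CPM in wild-type blood. Neutrophil markers (8 of 9 analysed) summed to 2698 to 8779 against 161 to 2131 CPM, and monocyte and macrophage markers (8 genes) to 1238 to 1457 against 541 to 1103 CPM. Sums of B cell, platelet and erythroid markers overlapped. The part of these cells in the blood values was not tested.

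Of 34 other pathway genes tested in blood 0 passed and 5 had an unadjusted p below 0.05, near the 15.5% of all genes. The smallest p belonged to MYOF, a membrane repair protein, at 1.12 (SE 0.299, adjusted p = 0.139) and DOCK5, an exchange factor for Rac, at 1.18 (SE 0.365, adjusted p = 0.186). Both passed with DESeq2 (0.0125 and 0.0288), which called 451 of 11174 genes. YAP1 gave -0.77 (SE 0.328) and WWTR1 1.03 (SE 0.440), neither of which passed (adjusted p = 0.305 and 0.308).

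**Figure D4:**
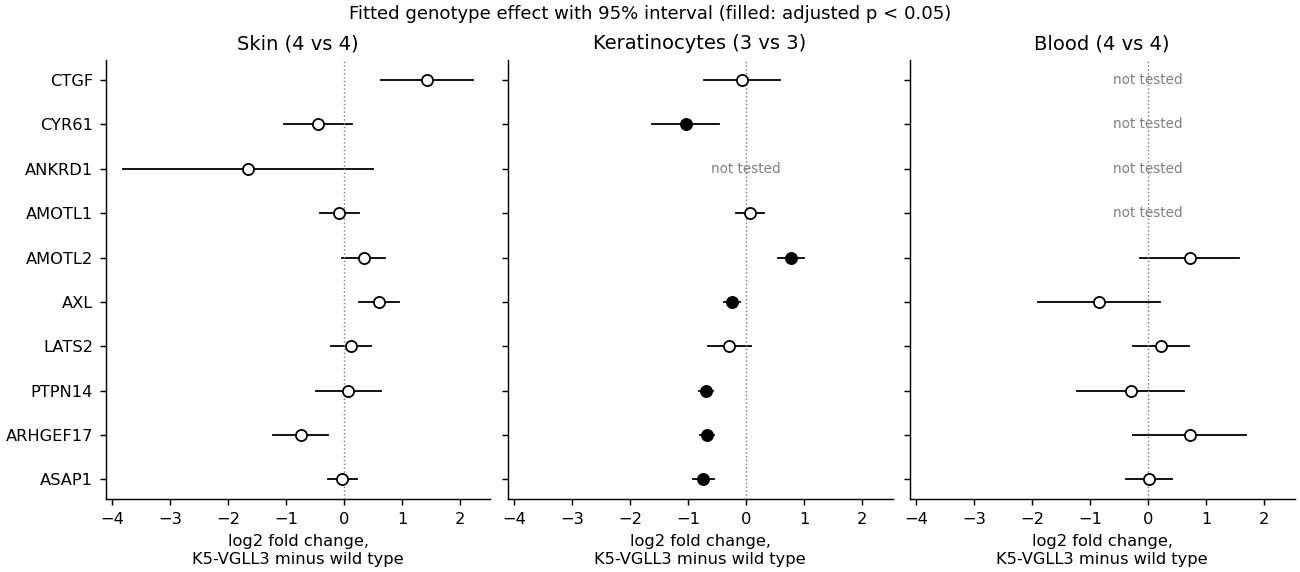
Fitted log2 fold change (horizontal axes, K5-VGLL3 minus wild type) with 95% interval for the 10 Hippo targets in skin, keratinocytes and blood; filled points passed at an adjusted p below 0.05, and members too low for the fit are marked as not tested. Filled points appear only among keratinocytes, AMOTL2 to the right of 0 and CYR61, AXL, PTPN14, ARHGEF17 and ASAP1 to the left.

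Genotype effects were also set against each other between tissues. The contrast of keratinocytes with skin held no sex term in any setting, and sex was uneven between the genotypes in the cultures. Sex and genotype are thus partly confounded in it. In keratinocytes alone ASAP1 kept its call with a sex term, and AXL and NT5E did not. For keratinocytes minus skin, 1 of 10 members passed, beside 0.714% (120 of 16802) of all genes. That member was ASAP1, at -0.75 (SE 0.144, adjusted p = 0.0341), which fell in the cultures and was level in skin. The call was lost without any 1 of the 6 cultures or of 4 of the skin libraries (K5-VGLL3 replicates 1 and 3, wild-type replicates 1 and 4), with adjusted p of 0.000273 to 0.114 over 18 settings. AXL, whose K5-VGLL3 libraries lay above all wild-type ones in skin and below them in the cultures, differed by -0.89 (SE 0.201) without passing (adjusted p = 0.0657, 0.00137 to 0.194 over 18 settings). PTPN14 differed by -0.78 (SE 0.295, adjusted p = 0.251) and CTGF by -1.60 (SE 0.564, adjusted p = 0.218). ARHGEF17, lower in the cultures, differed between them and skin by 0.01 (95% interval -0.57 to 0.58). Of the other pathway genes NT5E passed, at 1.05 higher in keratinocytes (adjusted p = 0.0466). That call held in 6 of 18 other settings (0.00239 to 0.146) and was lost without any 1 of 5 cultures (all but K5-VGLL3 replicate 3) or of 4 skin libraries (K5-VGLL3 replicates 3 and 4, wild-type replicates 1 and 3).

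For skin minus blood, 1 of 10 members passed, beside 1.21% (215 of 17803) of all genes. CTGF differed by 6.02 (SE 0.919, adjusted p = 0.0155), a size that rests on the 3 counts of K5-VGLL3 blood. It passed under 13 of 13 other settings (adjusted p of 4.62e-05 to 0.0491), which draw on the same few blood counts and are no separate support. CTGF, CYR61, ANKRD1 and AMOTL1 were too low to be tested in blood alone and entered this fit through their skin counts. The sex-by-genotype term passed for 0 of 10 members tested in skin and 0 of 8 in blood, beside 0% of all 18726 and 11778 genes. No member had an unadjusted p below 0.05 for it, and 1579 genes in skin and 361 in blood did. DESeq2 called 138 and 5 genes for that term, none of them a member.

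Genes whose pattern over the libraries was most like that of CTGF and CYR61 were sought by the root mean square difference of centred log2 CPM. Over 8 skin libraries the closest named genes to CTGF were DKK2, a secreted Wnt antagonist (0.266 log2 units), and MGP, the matrix Gla protein (0.270), against a spread of CTGF itself of 0.898 (SD). For CYR61 in skin they were LCORL (0.180), RSBN1 (0.199) and ATM, the DNA damage kinase (0.206), against an SD of 0.435. Over 6 cultures PDGFB, a platelet-derived growth factor chain (0.0589), and PPP1R12B, a myosin phosphatase subunit (0.0720), were closest to CTGF, and MSLNL (0.0687), FGF13 (0.116) and IGF2BP1 (0.124) to CYR61. A gene model known only by a clone name came first for CTGF in each tissue. With so few libraries these distances are a description.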

How the data were processed

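Gene counts of 22 mouse libraries were used as the authors deposited them, raw counts per gene symbol in one table for skin and blood and another for keratinocytes. Stranded mRNA libraries were sequenced on an Illumina HiSeq instrument, per the labels' protocols, with a different RNA kit for skin, blood and keratinocytes. Tools named in the submitters' processing notes are STAR 2.5.2 and HTSeq 0.6.1, with DESeq2 and the build mm10; annotation, strand setting and filters were not given there. All sample columns were used.

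TMM scaling, filterByExpr and a quasi-likelihood fit (edgeR 4.0.16, run under R 4.3.3) gave the genotype effects; the models for skin and blood held a sex term and that for keratinocytes did not. Skin minus blood had animal as a block. Keratinocytes minus skin was a contrast of group means over the joined counts, without a sex term. P-values were adjusted (Benjamini-Hochberg) over all genes tested, with a threshold of 0.05. CPM use TMM-scaled library sizes, and log2 CPM a prior count of 2. Exon lengths are from GENCODE vM21 (GRCm38). Promoter sequences are from RefSeq. Alternatives were DESeq2 1.42.0, limma-voom (limma 3.58.1), RLE factors, no filter, other model terms and each library left out. The fit was tested on simulated data. All replicate pairs differed by more than sampling noise (chi-square per degree of freedom 4.51 to 668 over 30 pairs). Figures were drawn with matplotlib 3.10.9.

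The members and lists were chosen with earlier results of these data known. Named genes are the members, VGLL3, KRT5 and KRT14, up to 6 passing genes of each pathway list per comparison (where none passed, the smallest p values), and for CTGF and CYR61 the 3 genes most like them. NUAK2 and CCDC80 were repeated for skin because they passed in keratinocytes.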

Additional observations from a re-analysis of the deposited data

Results flagged for a closer look

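LATS2 in wild-type skin had 1 library far from the other 3: replicate 3 measured 34.1 CPM, against 42.6, 43.3 and 44.1 CPM. This was the single case over the limit of Dixon's test among 32 sets of 4 values, 1 for each tested member in each skin and blood group. Chance gives about 1 in 20 for each set. The sets draw on the same libraries and are not independent. The same library had the highest summed hair-shaft genes of all skin libraries (55400 CPM). The part of that difference in the LATS2 value was not tested.

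CTGF differed in its genotype effect between skin and blood, by 6.02 on the log2 scale. It was higher in K5-VGLL3 skin in 4 of 4 animals against every wild-type animal, and lower in 4 of 4 K5-VGLL3 blood libraries, where its counts were 0 to 2. In blood alone it was too low to be tested.

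ASAP1 differed between keratinocytes and skin, by -0.75 on the log2 scale. It was lower in 3 of 3 K5-VGLL3 cultures than in any wild-type culture, while the skin groups overlapped.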

How the results depend on the processing

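Of the 10 members, AMOTL2, PTPN14, ARHGEF17 and ASAP1 kept their calls in keratinocytes under all 11 settings, and 4 to 7 members passed there. In skin 0 members passed in the main test, 3 with DESeq2, 0 to 1 with a library left out, and 2 with both libraries numbered 2 left out, a setting chosen after the data were seen. Genes called in skin, 2 in the main test, numbered 1100 with DESeq2, 1 with limma-voom, 0 without the sex term, 5 with the hair-shaft covariate, 2978 with both libraries numbered 2 left out and 0 to 278 with a library left out, the 278 without wild-type replicate 2. With a replicate block, in which same-numbered animals of both genotypes were paired, 0 genes and 0 members passed in skin and 102 genes and 0 members in blood; the numbers name different animals, and the correlation of their deviations ran from -0.46 to 0.08 in skin and -0.25 to 0.41 in blood. In blood 85 genes passed, against 451 with DESeq2, 1101 with no filter on low counts (1 member, CTGF), 21 with limma-voom, 162 without the sex term and 3 to 611 with a library left out. In keratinocytes 2197 genes passed, 561 with the sex term and 880 to 3651 with a culture left out. For keratinocytes minus skin 120 genes and 1 member passed, 704 and 2 with DESeq2 (ASAP1 and AXL), 16 to 1077 genes and 0 to 3 members with a library left out. For skin minus blood 215 genes and 1 member passed, 985 genes with DESeq2, 78 to 869 genes and 1 to 4 members with an animal left out. Without K5-VGLL3 animal 2 AMOTL1, AXL and ARHGEF17 also passed, among 869 genes. The blood of that animal held 24 of the 31 AMOTL1 counts of K5-VGLL3 blood. AMOTL1 was too low to be tested in blood alone, so its call rests on the few counts left. The sex-by-genotype term passed for 0 genes, 138 with DESeq2 in skin, 5 with DESeq2 and 332 with no filter in blood, and up to 148 (from 0) with a blood library left out.

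Some log2 values that did not pass changed sign. In skin PTPN14 turned to -0.38 with the hair-shaft covariate and ran from -0.051 to 0.29 with a library left out, AMOTL1 from -0.14 to 0.015 and ASAP1 from -0.069 to 0.030. In blood PTPN14 turned to 0.016 with limma-voom and ran from -0.59 to 0.30, and ASAP1 from -0.057 to 0.15. In keratinocytes CTGF turned to 0.38 with the sex term and ran from -0.28 to 0.18, and AMOTL1 from -0.0045 to 0.17. For keratinocytes minus skin ARHGEF17 was -0.0162 with DESeq2, -0.0160 with RLE factors and -0.0055 with no filter, and ran from -0.15 to 0.14; AMOTL1 ran from -0.012 to 0.27 and VGLL3 from -1.24 to 0.45. For skin minus blood ASAP1 was 0.022 with no filter (-0.10 to 0.026 with an animal left out), LATS2 0.012 with limma-voom (-0.23 to 0.15), AMOTL2 ran from -0.63 to 0.028 and PTPN14 from -0.27 to 0.44. The sex-by-genotype values with a library left out ran in skin from -1.64 to 3.28 for ANKRD1, -0.32 to 0.090 for AXL, -1.18 to 0.45 for CTGF and -0.31 to 0.20 for LATS2, and in blood from -1.07 to 0.39 for AMOTL2, -0.95 to 1.01 for AXL and -1.05 to 1.14 for PTPN14. The cause of these changes was not tested. In blood, low counts limit what could be seen for CTGF, CYR61, AMOTL1 and ANKRD1.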

Other observations

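A pair of the targets did not overlap between the sexes in skin, a pattern chosen after the values were seen and not tested. How many of all genes are apart between the sexes in this way was not counted. The pattern therefore cannot be called particular to these targets. AMOTL1 measured 235 to 325 CPM in the 4 males and 200.2 to 220 CPM in the 4 females, without overlap, and AMOTL2 measured 149 to 266 CPM in males and 115 to 137 CPM in females. The other 8 members overlapped between the sexes; CYR61, for example, measured 98.1 to 239 CPM in males and 124 to 212 CPM in females.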
